A study of Mus musculus with 34 samples.

Results

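Interferon beta, its receptor, the factors that relay its signal, the sensors that induce it and a set of the genes it switches on were followed in RNA-seq of the stromal vascular fraction (SVF) of visceral fat. The 46 genes were chosen by name, with earlier results of these data known, so their counts beside those of all genes are descriptions. They were each found once in the deposited tables, and stand among 32098 genes listed. The mice were male C57BL/6J, which carry no transgene. They were placed at 6 weeks of age on a high fat diet (HFD, D12492, 60% of kcal from fat) or a control diet (CHOW, D12450B or D12450K) and studied after 8, 20 or 34 weeks, when they were 14, 26 and 40 weeks old. All groups were fasted before the perigonadal fat was taken, and the SVF was what pelleted when that fat was digested with collagenase at 37 °C and the adipocytes were floated off. CHOW was represented by 4, 5 and 7 libraries at 8, 20 and 34 weeks, and HFD by 6 at each time. Which of the control diets a mouse ate is not given per library, nor is the day of harvest, so that age, time on diet and day of harvest cannot be told apart between the time points.

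Type I interferons are secreted by cells whose sensors have met foreign or misplaced nucleic acid or bacterial products. The ligand binds the receptor of IFNAR1 and IFNAR2, which activates STAT2, and this joins IRF9 in a complex that binds the interferon-stimulated response element (ISRE) in front of its target genes. The products of those genes block translation, degrade RNA, tag proteins or trap viruses at membranes, and some (IRF7, the sensors) raise the response further while others (USP18) end it. In fat the SVF holds the macrophages and dendritic cells that can make the ligand as well as the stromal cells that answer it.

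The stretches before the start sites of Ifnb1 and of responders named below are shown because those of the responders carry the element through which such genes are known to be induced and that of Ifnb1 carries a motif of its enhancer. RefSeq promoter windows (GRCm38.p6, 250 bases before to 50 after a start) were matched by symbol for 37 of the 46 genes. The capitals mark GAAA, any 2 bases, GAAA (the ISRE core, sought on both strands, overlapping matches joined), and in Ifnb1 the κB motif GGGAAATTC, which is known from the enhancer of this gene and was added after the sequences had been seen. The Ifnb1 stretch is chr4:88522795-88522929 on the minus strand and that of Isg15 is chr4:156200860-156200911 on the minus strand. Those of Ifit1, Ifit3 and Ifit3b lie on the plus strand at chr19:34640770-34640828, chr19:34583358-34583431 and chr19:34607754-34607827. Those of Rsad2 (minus strand, chr12:26456548-26456587), Gbp5 (plus strand, chr3:142496754-142496793), Gbp2 (plus strand, chr3:142620589-142620628) and Irgm1 (minus strand, chr11:48871421-48871465) complete the set.
Ifnb1: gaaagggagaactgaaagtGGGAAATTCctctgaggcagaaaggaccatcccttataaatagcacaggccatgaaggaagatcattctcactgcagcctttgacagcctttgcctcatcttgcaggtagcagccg
Isg15: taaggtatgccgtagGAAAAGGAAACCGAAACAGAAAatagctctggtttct
Ifit1: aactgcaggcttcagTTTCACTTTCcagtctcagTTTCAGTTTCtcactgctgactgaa
Ifit3: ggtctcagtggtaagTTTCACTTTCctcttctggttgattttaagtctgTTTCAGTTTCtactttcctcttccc
Ifit3b: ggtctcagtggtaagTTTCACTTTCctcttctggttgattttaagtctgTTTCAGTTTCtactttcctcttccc
Rsad2: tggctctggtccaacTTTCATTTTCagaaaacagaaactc
Gbp5: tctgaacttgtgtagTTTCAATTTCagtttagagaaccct
Gbp2: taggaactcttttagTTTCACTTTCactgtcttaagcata
Irgm1: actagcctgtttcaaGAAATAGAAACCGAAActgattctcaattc

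The ISRE core was found in the windows of 20 of the 37 matched genes (54.1%) and in 3.44% of all 32851 windows. The gamma-activated site (TTC, any 3 bases, GAA, a palindrome) was found in 14 of the 37 (37.8%), or 14 of the 45 windows, and in 8.30% of all windows. The κB motif was found in Ifnb1 alone of the 37, in 1 of the 45 windows, and in 0.253% of all windows. Isg15 held 3 overlapping ISRE cores, and the stretches of Ifit3 and Ifit3b were the same in 74 of 74 bases. The genes are near copies, and reads shared by them may have been split unevenly. The windows of Oasl1, Trex1 and Trim30c held no ISRE core.

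Some libraries stood apart before any comparison was made. RNA of the seminal vesicle (Svs2, Svs4, Svs5 and Svs6) summed to 110600 TPM in HFD 8 week replicate 3, and spermatid RNA (Prm1, Prm2, Tnp1 and Tnp2) to 10830 TPM in HFD 20 week replicate 5. Erythroid RNA (Hba-a1, Hba-a2, Hbb-bs and Hbb-bt) was higher still, reaching 267370 TPM in an HFD library of 8 weeks (group median 64108 TPM), and at 20 weeks it summed to 27289 to 129730 TPM on CHOW and 12596 to 30381 TPM on HFD. Adipocyte RNA summed to 12003 TPM in CHOW 34 week replicate 6. TPM is a length-corrected share of a library, so such RNA lowers the value of every other gene there. Macrophage markers were present in every group (all 8 of 8 genes, summed levels from 4514 to 18826 TPM), as were all 5 fibroblast or progenitor and all 4 endothelial markers. In a mixed pellet, fewer cells of a type and less RNA per cell cannot be told apart.

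Ifnb1 (chromosome 4, 88522025 to 88522774, a gene without introns), the ligand, was the member that moved most. In the CHOW libraries of 8 weeks it was at 2.52, 7.99, 0.885 and 1.68 TPM, and in those of 20 weeks at 54.1, 58.8, 181, 201 and 356 TPM, with no overlap. On HFD it was at 0.00 to 4.64 TPM at 8 weeks (median 1.04, 2 libraries listed at 0) and at 4.21 to 53.8 TPM at 20 weeks (median 36.8). Thus every library of 20 weeks but HFD replicate 2 was above every library of 8 weeks, and the highest HFD library of 20 weeks lay just under the lowest CHOW library. At 34 weeks, in values deposited separately, it did not exceed 0.818 TPM in any of 13 libraries, 8 of which were listed at 0. Ifnb1 was not tested there.

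On the log2(TPM + 1) scale, on which all fold changes and standard errors (SE) here are given, Ifnb1 rose from 8 to 20 weeks by 5.24 on CHOW (SE 0.70, adjusted p = 0.00146) and by 3.55 on HFD (SE 0.61, adjusted p = 0.000801), in limma's moderated test with Benjamini-Hochberg adjustment over all genes tested. HFD was lower than CHOW at 20 weeks (-2.43, SE 0.64, adjusted p = 0.0158). That call rested in part on CHOW 20 week replicate 5, the highest library: without it the adjusted p was 0.0582, and with a pseudocount of 0.1 TPM it was 0.0765. At 8 weeks the diets were not told apart (-0.75, SE 0.68, adjusted p = 0.785). The difference between the rises on the diets was -1.68 (95% interval -3.62 to 0.25, adjusted p = 0.407), so a smaller rise on HFD was not established for the ligand itself. The mean level was 170 ± 124 TPM (SD, n = 5) in CHOW and 31.6 ± 19.8 (n = 6) in HFD mice at 20 weeks, against 3.27 ± 3.21 (n = 4) and 1.60 ± 1.83 (n = 6) at 8 weeks. The order from the highest was thus CHOW at 20 weeks, HFD at 20 weeks, then CHOW and HFD at 8 weeks. Of these neighbours the first pair differed in the test, the last pair did not pass it, and HFD at 20 weeks and CHOW at 8 weeks, which were not compared in the fit, overlapped in 1 library. No other type I ligand passed the filter on low values, 17 having been listed (the alpha genes, Ifnab, Ifnz, Ifne and Ifnk).

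**Figure D1:**
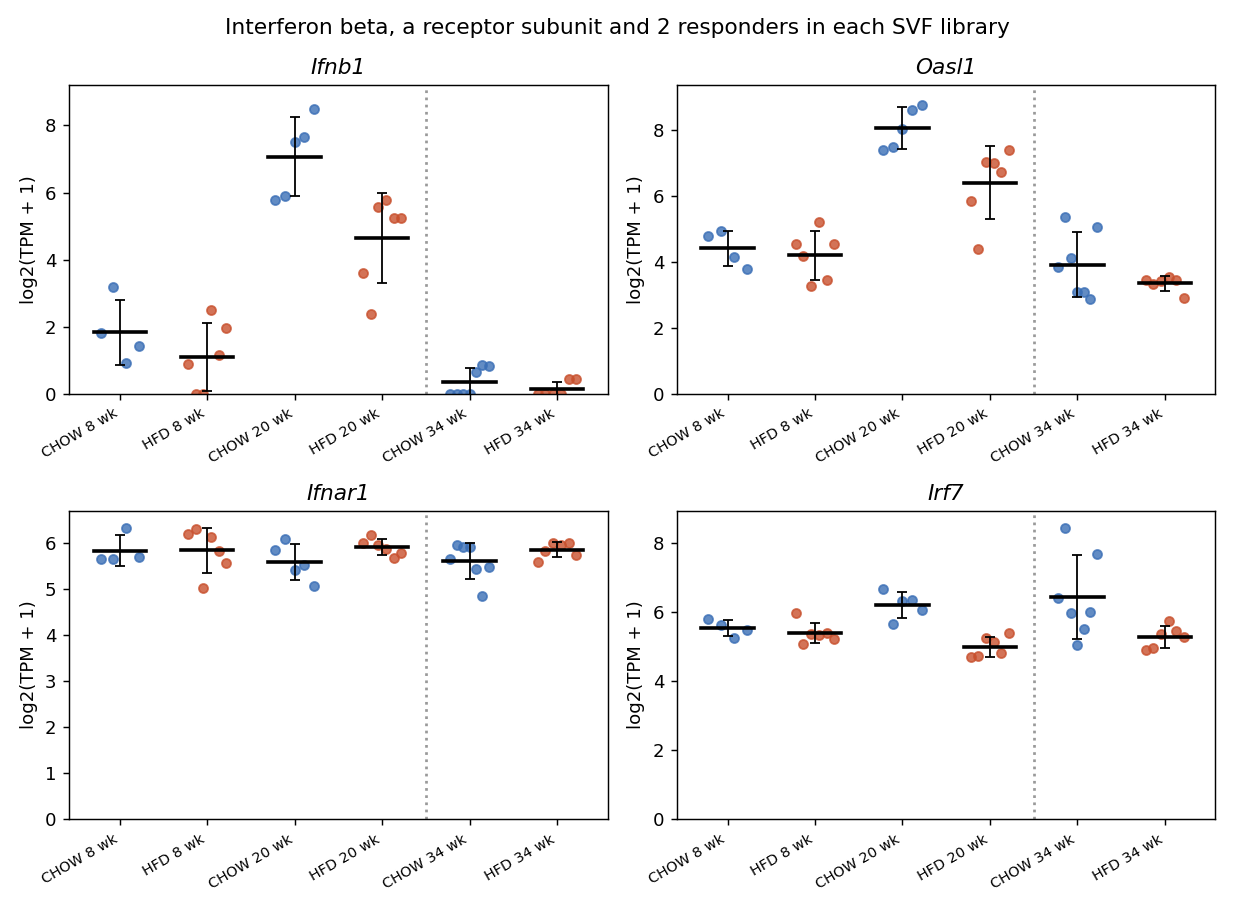
Level of Ifnb1, Oasl1, Ifnar1 and Irf7 in each SVF library, as log2(TPM + 1), in the 6 groups (wk, weeks on diet). Points are libraries (blue CHOW, orange HFD), the black bar is the mean and the whiskers are 1 SD. The dotted line separates the 34 week libraries, which come from another table. Ifnb1 was at 54.1 to 356 TPM in CHOW and at 4.21 to 53.8 TPM in HFD libraries of 20 weeks, while Ifnar1 overlapped between all groups.

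The receptor genes did not follow the ligand. Ifnar1 lay between 27.8 and 78.8 TPM and Ifnar2 between 71.3 and 195 TPM across all libraries of both tables, with overlap between the groups in each comparison, and neither was called in any. At 20 weeks the HFD difference was 0.32 for Ifnar1 (95% interval -0.12 to 0.76, adjusted p = 0.325) and -0.11 for Ifnar2 (-0.39 to 0.18, adjusted p = 0.65). The change from 8 to 20 weeks on CHOW was -0.25 (-0.73 to 0.24, adjusted p = 0.745) and 0.17 (-0.15 to 0.49, adjusted p = 0.728). The intervals lie well inside the change of the ligand and still allow smaller changes in either direction. The replicate of CHOW at 8 weeks with the highest Ifnar1 (replicate 3, 78.8 TPM) was the lowest of its group for 34 of the 46 genes.

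Of the factors that carry the signal, STAT2, IRF9 and IRF7 were lower on HFD at 20 weeks while IRF1 and IRF3 were not. Irf7, which amplifies the response, was at 99.4, 49.5, 78.3, 80.4 and 65.1 TPM in the CHOW libraries of 20 weeks and at 24.8 to 40.6 TPM (median 30.4) in the HFD libraries. No HFD library reached the lowest CHOW library, and the difference was -1.21 (SE 0.18, adjusted p = 0.000241). Irf9, the DNA-binding part of the complex, was at 78.8, 62.5, 83.3, 82.1 and 68.7 TPM on CHOW and at 40.3 to 54.4 TPM (median 49.9) on HFD, again without overlap (-0.64, SE 0.15, adjusted p = 0.00887). Stat2 was at 59.7, 42.3, 74.9, 76.9 and 61.8 TPM on CHOW and at 29.8 to 45.8 TPM (median 38.4) on HFD, with CHOW replicate 2 inside the HFD range (-0.70, SE 0.20, adjusted p = 0.0266). The Stat2 call was lost in 5 of 11 fits that left out a library, with an adjusted p of up to 0.0799.

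Irf3, the factor that acts on the Ifnb1 enhancer without being induced itself, lay at 44.2 to 54.3 TPM on CHOW and 47.9 to 70.9 TPM on HFD at 20 weeks (0.18, SE 0.17, adjusted p = 0.494). It was called in no comparison. Irf1, a factor of both type I and type II responses, was at 409 to 620 TPM on CHOW and 419 to 623 TPM on HFD at 20 weeks, with no difference in the fit (0.00, 95% interval -0.45 to 0.45, adjusted p = 0.999). It had risen with time on both diets, by 1.14 on HFD (SE 0.21, adjusted p = 0.00149) and by 0.88 on CHOW, where all libraries of 20 weeks were above those of 8 weeks but the adjusted p was 0.0986 (SE 0.24). None of Stat2, Irf9, Irf7 and Irf3 was called for time on either diet. Irf7 was 0.67 higher at 20 weeks on CHOW (SE 0.20, adjusted p = 0.135) and 0.40 lower on HFD (-0.40, SE 0.17, adjusted p = 0.143).

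From 8 to 20 weeks on CHOW, 10 of 46 genes rose and none fell, where 0.458% of the 16808 genes tested rose. Unadjusted, 27 of the 46 were under 0.05 (12.5% of all genes), 44 of 46 changes were positive (37.2% of all genes), and the median was 0.63 against -0.09 over all genes. All libraries of 20 weeks lay above all of 8 weeks for 14 of the 46, which holds for 2.61% of the genes tested. Besides Ifnb1 the genes that rose were a sensor, a nuclease, a 2-5A synthetase relative, an IFIT gene, Isg15, Rsad2, Trim30c, Parp14 and Gbp5.

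Ifih1, the cytosolic sensor MDA5 of long double-stranded RNA, was at 17.3, 17.6, 7.10 and 12.8 TPM at 8 weeks and at 57.2, 58.1, 106, 149 and 103 TPM at 20 weeks (2.68, SE 0.40, adjusted p = 0.00269). Trex1, a nuclease that clears cytosolic DNA, was at 92.0, 113, 79.2 and 76.4 TPM and then at 222, 270, 258, 270 and 262 TPM (1.51, SE 0.21, adjusted p = 0.00149), a narrow range at the later time. Both were apart between the times in every library. The related sensors Ddx58 (RIG-I) and Dhx58 (LGP2), which bind RNA too, changed by 0.30 (adjusted p = 0.535) and 0.30 (adjusted p = 0.644) and were not called.

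Oasl1, a catalytically inactive relative of the 2-5A synthetases, was at 26.2, 29.4, 16.5 and 12.8 TPM at 8 weeks and at 165, 179, 260, 387 and 433 TPM at 20 weeks. Its rise of 3.65 (SE 0.50, adjusted p = 0.00146) was the largest after that of Ifnb1. The true synthetases, which make the activator of RNase L, were not called: Oas1a, Oas2 and Oas3 changed by 0.47, 0.54 and 0.61 (adjusted p = 0.264, 0.369 and 0.372). Ifit1, which binds RNA lacking the host cap mark, was at 16.5, 15.6, 6.54 and 15.2 TPM and then at 43.3, 39.4, 105, 135 and 140 TPM (2.57, SE 0.48, adjusted p = 0.0141). Isg15, a ubiquitin-like tag, went from 104, 99.4, 65.3 and 91.2 TPM to 216, 207, 331, 345 and 310 TPM (1.62, SE 0.28, adjusted p = 0.00914).

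Rsad2, the antiviral enzyme viperin, was at 23.4, 23.2, 8.64 and 24.1 TPM at 8 weeks and at 43.5, 42.5, 129, 185 and 168 TPM at 20 weeks (2.30, SE 0.43, adjusted p = 0.0141). Replicates 1 and 2 of 20 weeks were low beside replicates 3, 4 and 5 here, as they were for Ifnb1 and Ifit1. Trim30c, of a mouse family of TRIM proteins, went from 1.499, 4.41, 0.333 and 1.26 TPM to 6.62, 5.91, 17.3, 22.6 and 20.0 TPM (2.44, SE 0.39, adjusted p = 0.00446). Parp14, an ADP-ribosyltransferase, went from 45.8, 48.2, 19.9 and 37.7 TPM to 63.3, 56.6, 109, 108 and 80.4 TPM (1.14, SE 0.26, adjusted p = 0.0462). Gbp5, a guanylate-binding protein, was at 13.9, 17.005, 5.30 and 13.9 TPM and then at 23.6, 38.7, 69.1, 61.0 and 47.4 TPM (1.87, SE 0.33, adjusted p = 0.0121). On leaving out single libraries, 7 of the 10 calls held in every fit, Ifit1 and Rsad2 were each lost without CHOW 20 week replicate 4 or 5 (adjusted p up to 0.0539), and Parp14 was lost in 7 of 9 fits (up to 0.158).

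On HFD the same interval gave 9 genes that rose and 1 that fell. Over all genes tested 6.12% rose and 2.65% fell on HFD, so that 9 of 46 higher stood against a larger background than on CHOW. The median was -0.02 against 0.09 over all genes, and 22 changes were positive and 24 negative, where 60.3% of all genes were positive. Of the 46, 22 had an unadjusted p under 0.05, as did 27.2% of all genes. The genes that rose were Ifnb1, Irf1, Ifih1 (1.41, SE 0.34, adjusted p = 0.0137), Trex1 (1.32, SE 0.18, adjusted p = 9.24e-05), Oasl1 (2.20, SE 0.43, adjusted p = 0.00264), Ifit1 (1.35, SE 0.41, adjusted p = 0.0449), Isg15 (0.88, SE 0.24, adjusted p = 0.0281), Ifi204 (0.89, SE 0.17, adjusted p = 0.00264) and Gbp5 (1.56, SE 0.29, adjusted p = 0.00166). Ifi204, a nuclear DNA-binding protein of the p200 family, went from 94.2 to 150 TPM (median 114.7) at 8 weeks to 157 to 344 TPM (median 215) at 20 weeks. Usp18, the protease that removes the Isg15 tag and damps receptor signalling, was lower at 20 weeks (-0.90, SE 0.25, adjusted p = 0.0317), at 3.56 to 6.35 TPM (median 4.45) after 6.91 to 13.1 TPM (median 8.84) at 8 weeks, without overlap.

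The calls of Ifit1, Isg15 and Usp18 on HFD were lost in 9, 5 and 6 of 12 fits that left out a library, with adjusted p of up to 0.0967, 0.063 and 0.0715. The ratio of higher to lower calls moved with the scaling of the libraries: median-ratio scaling gave 8 higher and 6 lower, quantile normalization 8 and 11, and sample quality weights 6 and 7. Counts over all genes are not given here for those settings, so whether the shift is particular to these genes is not known. Ifih1, Trex1, Oasl1, Ifit1, Isg15, Gbp5 and Ifnb1 thus passed the test on both diets, whereas Rsad2, Trim30c and Parp14 passed on CHOW, and on HFD changed by 0.50, 0.43 and 0.57 without a call.

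The difference between the changes on the diets was tested with the diet by time interaction. It gave 0 of 46 calls in limma at an adjusted p of 0.05, where 0.297% of all genes were called. At an unadjusted p under 0.05 there were 21 of 46, and 13.8% of all genes. The estimates were negative for 41 of 46 and positive for 5, where 68.8% of all genes were positive. The median was -0.72 against 0.18 over all genes. The lowest adjusted p was that of Ifit3 (-1.97, SE 0.47, adjusted p = 0.0838), followed by Irf7 (-1.06, SE 0.26, adjusted p = 0.101) and Usp18 (-1.55, SE 0.39, adjusted p = 0.105). Without CHOW 20 week replicate 2, which was the lowest of its group for 27 of the 46 genes, 7 genes passed, Irf7 among them (adjusted p = 0.0286). Leaving out a library that is low in these genes raises their CHOW level at 20 weeks. The count of all genes called in that fit is not given here, so the 7 calls do not establish an interaction.

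**Figure D2:**
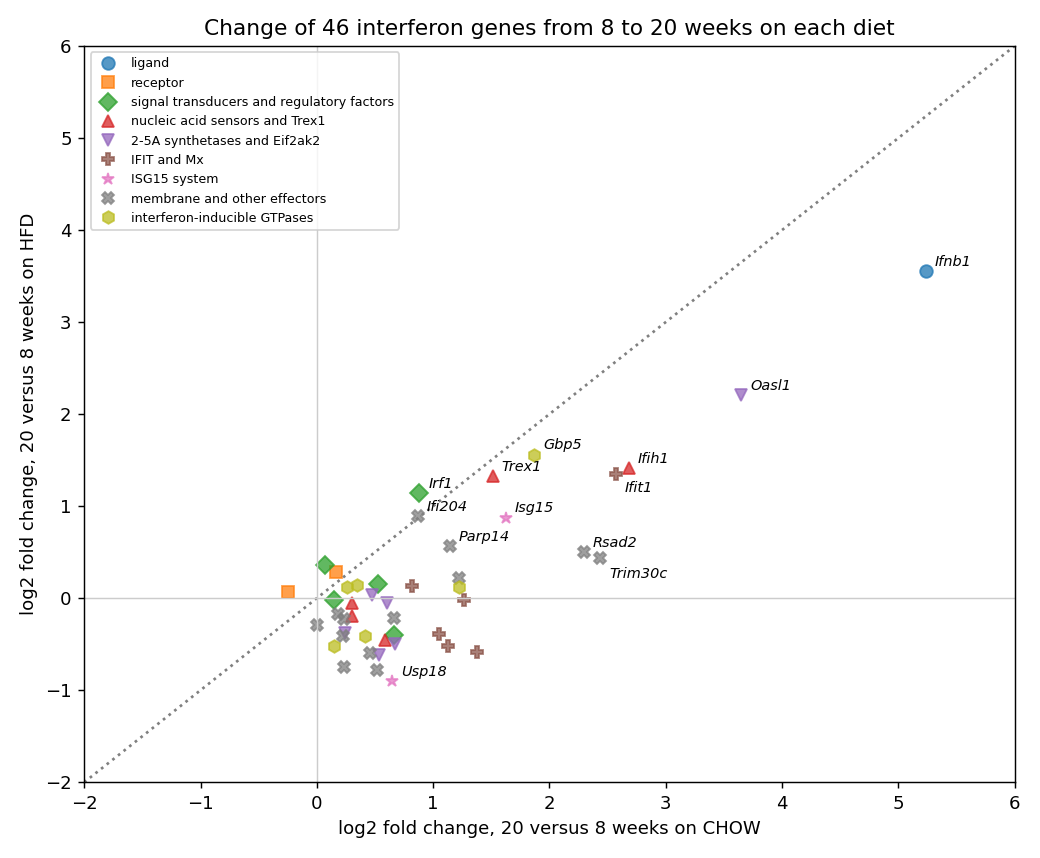
Change of the 46 genes from 8 to 20 weeks on CHOW (x axis) and on HFD (y axis), as log2 fold changes of TPM + 1 from the limma fit. Marker shapes are roles, named genes were called on at least 1 diet, and the dotted line marks equal change. Ifnb1 (5.24 and 3.55) and Oasl1 (3.65 and 2.20) lie farthest out, and 41 of 46 points lie under the line.

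Calls for diet among the 46 were found at 20 weeks alone, which does not by itself show a larger difference than at the other times. On HFD 28 of 46 genes were lower and none was higher, where 4.99% of the 16808 genes tested were lower. The median was -0.95 against 0.075 over all genes. Of 46 differences 43 were negative and 3 positive, where 57.4% of all genes were positive. An unadjusted p under 0.05 was found for 39, as for 30.5% of all genes. For 18 genes the highest of 6 HFD libraries was under the lowest of 5 CHOW libraries, which holds for 3.69% of the genes tested. By role, the genes called lower were the ligand, 3 of 5 signal transducers and regulatory factors, 1 of 5 genes of the sensors and Trex1 (Zbp1), 3 of 6 of the 2-5A synthetase family and the kinase Eif2ak2 (Oas2, Oasl1 and Oasl2), 5 of 6 IFIT and Mx genes (all but Mx2), both genes of the ISG15 system, 9 of 13 membrane and other effectors, and 4 of 6 interferon-inducible GTPases. Neither of the 2 receptor genes was among them.

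Of the calls beyond the ligand and the transducers, the largest were Rsad2, Trim30c, Ifit1, Oasl1, Gbp2 and Ifit3. The HFD libraries of 20 weeks held Rsad2 at 13.2 to 46.2 TPM (median 27.9), below 3 of the 5 CHOW libraries given above (-1.79, SE 0.38, adjusted p = 0.00448). Trim30c was at 1.40 to 4.63 TPM (median 3.24) on HFD, under each CHOW library (-1.74, SE 0.35, adjusted p = 0.00276). Ifit1 was at 5.88 to 45.9 TPM (median 30.7), overlapping CHOW replicates 1 and 2 (-1.71, SE 0.43, adjusted p = 0.0125). The order of these genes by size of difference was not tested, and their SEs overlap.

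Oasl1 was at 19.9 to 166 TPM (median 116) on HFD, with its highest library just above the lowest CHOW library (-1.66, SE 0.45, adjusted p = 0.0198). Gbp2, a guanylate-binding protein that attacks vacuoles holding microbes, was at 171, 159, 382, 368 and 358 TPM on CHOW and at 68.3 to 139 TPM (median 73.8) on HFD (-1.66, SE 0.31, adjusted p = 0.00156). Ifit3, a partner of Ifit1, was at 38.5, 18.6, 59.6, 53.9 and 59.0 TPM on CHOW and at 8.72 to 22.6 TPM (median 13.2) on HFD (-1.62, SE 0.32, adjusted p = 0.00235). Gbp2 was apart between the diets in every library, while CHOW replicate 2 of Ifit3 fell inside the HFD range.

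Beyond the transducers, the smallest differences that passed were those of Trim30a, Xaf1, Isg20, Ifitm3, Ifi204 and Mx1. Ifitm3, which keeps viruses from fusing with endosomes, was the most abundant of the 46 in these 21 libraries (mean 1270 TPM). It was at 2041, 1855, 1654, 1566 and 1541 TPM on CHOW and at 780 to 1067 TPM (median 894) on HFD (-0.92, SE 0.16, adjusted p = 0.000941). Ifi204, at 399, 351, 458, 462 and 506 TPM on CHOW and 157 to 344 TPM on HFD, was lower by the test too (-0.98, SE 0.18, adjusted p = 0.00151). Both were apart between the diets in every library.

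Trim30a, a relative of Trim30c, was at 29.3 to 34.0 TPM in the CHOW libraries and at 16.02 to 24.8 TPM (median 17.7) in the HFD libraries (-0.75, SE 0.17, adjusted p = 0.00625). Mx1, a dynamin-like GTPase that is truncated in most laboratory mice, was at 7.07, 12.1, 19.1, 24.9 and 10.4 TPM on CHOW and 4.09 to 10.3 TPM (median 5.75) on HFD (-1.01, SE 0.27, adjusted p = 0.0176). Xaf1, a pro-apoptotic factor, differed by -0.78 (SE 0.24, adjusted p = 0.0381) and Isg20, an RNA exonuclease, by -0.91 (SE 0.30, adjusted p = 0.0435). The latter were the least secure: leaving out a library ended the Xaf1 call in 7 of 11 fits and the Isg20 call in 8 of 11. Of the 28 calls 19 held in every such fit, and the others lost in some were Ifnb1, Stat2, Cmpk2, Mx1, Oasl1, Rtp4 and Igtp.

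Some genes of the 46 were named for their values after these were seen. Zbp1, the sensor of left-handed nucleic acid that can start necroptosis, was at 55.1, 44.4, 28.0, 34.1 and 29.2 TPM on CHOW and at 8.70 to 16.3 TPM (median 11.8) on HFD at 20 weeks (-1.55, SE 0.24, adjusted p = 0.000273). Usp18 was at 16.8, 7.88, 18.3, 17.5 and 14.6 TPM on CHOW and at 3.56 to 6.35 TPM on HFD (-1.47, SE 0.27, adjusted p = 0.00128). Both were apart in every library, and neither had been called for time on CHOW, where Zbp1 changed by 0.59 (adjusted p = 0.348) and Usp18 by 0.65 (adjusted p = 0.368). On the other side Ifih1, Trex1, Parp14 and Gbp5, which had risen on CHOW, were not called lower on HFD (-0.98, -0.45, -0.65 and -0.26, adjusted p = 0.0729, 0.112, 0.066 and 0.603).

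**Figure D3:**
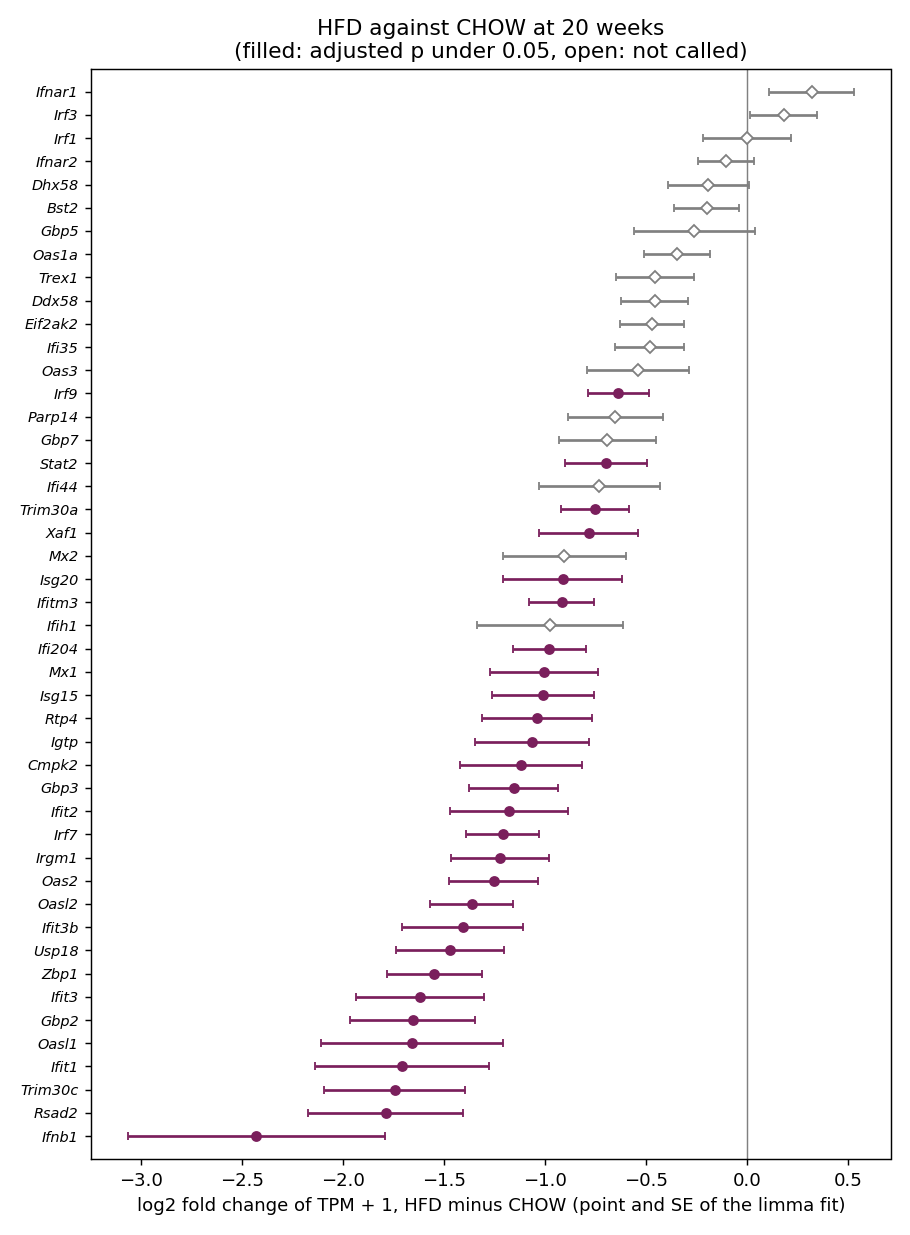
Difference between HFD and CHOW at 20 weeks for each of the 46 genes, as the log2 fold change of TPM + 1 with its SE in the limma fit. Filled circles passed an adjusted p of 0.05 and open diamonds did not. The 28 filled circles all lie left of 0, from -0.64 for Irf9 to -2.43 for Ifnb1, and Ifnar1 lies farthest right.

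The promoter stretches shown above did not separate the genes that moved from those that did not. An ISRE core was found in 5 of the 9 matched genes that rose on CHOW and in 15 of the 28 that were not called, and in 12 of the 22 matched genes lower on HFD at 20 weeks and 8 of the 15 others. These counts are descriptions of a window of 300 bases.

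At 8 weeks none of the 46 genes was called for diet in limma, where 0.0238% of all genes were. At an unadjusted p under 0.05 there were 5 (Irf9, Ifitm3, Ifi204, Igtp and Irgm1), all lower on HFD, and 9.70% of all genes. The median was -0.11 against -0.08 over all genes, with 19 differences positive and 27 negative, where 37.9% of all genes were positive. Ifi204 came closest, at 256, 311, 160 and 245 TPM on CHOW and 94.2 to 150 TPM on HFD (-0.999, SE 0.19, adjusted p = 0.0653). Its groups did not overlap, which held for 1 of the 46. Over all 16808 genes tested HFD lay wholly below CHOW for 297 and wholly above for 57, a like share. The interferon-inducible GTPase Irgm1, which acts on vacuoles and autophagy, was at 163, 161, 65.5 and 205 TPM on CHOW and at 50.9 to 77.3 TPM (median 65.1) on HFD (-1.09, SE 0.26, adjusted p = 0.132). CHOW replicate 3 was the library inside the HFD range for Irgm1. Without that library, the lowest of its group for 34 of the 46 genes, 3 genes were called. Leaving it out raises the CHOW level of such genes. The count of all genes called in that fit is not given here, so the 3 calls do not establish a difference. The transducers Stat2, Irf7, Irf1 and Irf3 differed by -0.32, -0.15, -0.26 and -0.11 (adjusted p = 0.673, 0.883, 0.778 and 0.914) and Irf9 by -0.46 (adjusted p = 0.331).

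At 34 weeks 44 of the 46 genes were tested (Ifnb1 and Trim30c were too low) and none was called in limma, where 0.243% of 13982 genes were. At an unadjusted p under 0.05 there were 13, and 13.2% of all genes. The median was -0.48 against 0.10. Of 44 differences 40 were negative and 4 positive, where 64.6% of all genes were positive. Stat2 differed by -0.27, Irf9 by -0.17, Irf7 by -1.16 and Irf3 by -0.02 (adjusted p = 0.591, 0.697, 0.307 and 0.942). Irf1 differed the other way, at 127 to 287 TPM (median 199) on CHOW and 228 to 474 TPM (median 351) on HFD (0.75, SE 0.20, adjusted p = 0.149).

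The CHOW libraries of 34 weeks were spread widely. Replicates 2 and 7 were both above the other 5 in 35 of the 46 genes and both above every HFD library in 34 of 46. This description was made after the values were seen and was not tested. The same counts were not made over all genes, so whether the pattern is particular to these genes is not known. Isg15 was at 47.3, 311, 42.7, 39.4, 39.4, 49.4 and 165 TPM in the 7 libraries in order of replicate, and at 26.3 to 51.1 TPM on HFD. Irf7 was at 84.1, 346, 61.7, 32.2, 44.3, 62.6 and 204 TPM, and Mx1 at 10.7, 38.2, 7.35, 3.33, 3.38, 1.04 and 20.2 TPM. Ifit3 was at 29.7, 208, 24.6, 24.03, 35.5, 25.0 and 82.0 TPM. The genes that did not follow this pattern included Gbp2, Gbp3, Gbp5 and Gbp7, and Ifnb1 was at 0 and 0.779 TPM in replicates 2 and 7.

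Markers of monocytes (Ly6c2, Ccr2 and Plac8) summed to 864 TPM in replicate 2 and 456 TPM in replicate 7, the 2 highest of the 7 libraries. CHOW replicate 4 followed at 312 TPM. Those of neutrophils summed to 291 and 748 TPM, beside 285 TPM in CHOW replicate 4. No other marker list had replicates 2 and 7 as its 2 highest. Macrophage sums, for one, were 12305 and 11720 TPM, ranks 4 and 6 of the 7. The part of these cells in the pattern was not tested. Leaving out both libraries, an alternative chosen after the data were seen, gave 0 calls as well. Among the HFD libraries, replicate 4 was the highest in 25 of the 46 genes, with Gbp2 at 175 TPM, Igtp at 68.6 TPM and Irgm1 at 115 TPM, against highest values of 71.6, 30.8 and 61.2 TPM in the others. This count too was not made over all genes.

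**Figure D4:**
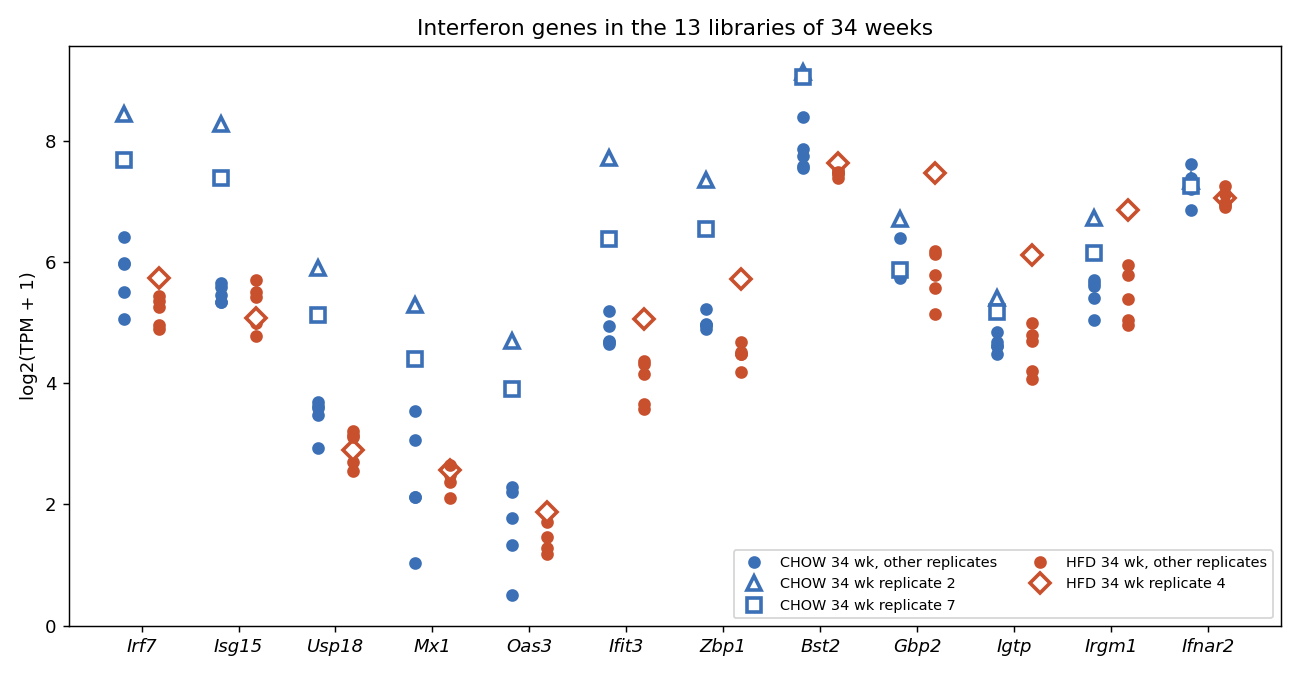
A choice of 12 genes in the 13 libraries of 34 weeks, as log2(TPM + 1), made after their values were seen. Blue are CHOW and orange HFD libraries, with open triangles and squares for CHOW replicates 2 and 7 and open diamonds for HFD replicate 4. Irf7, Isg15, Usp18, Mx1, Oas3, Ifit3, Zbp1 and Bst2 were highest in CHOW replicates 2 and 7, whereas Gbp2, Igtp and Irgm1 were highest in HFD replicate 4.

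Across groups the 45 genes without Ifnb1 had a mean log2(TPM + 1) of 5.76 ± 0.30 (SD) in CHOW mice at 20 weeks, against 4.89 ± 0.35 in CHOW and 4.77 ± 0.24 in HFD mice at 8 weeks and 4.87 ± 0.27 in HFD mice at 20 weeks. The lowest CHOW library of 20 weeks (5.31) was above the highest of the others in that table (5.19). At 34 weeks it was 4.87 ± 0.62 on CHOW and 4.38 ± 0.25 on HFD, in values deposited separately. This order is that of the mean and does not hold for each gene: Ifnar1, for one, had its lowest mean among the 4 groups of 8 and 20 weeks in CHOW mice at 20 weeks (48.3 TPM), and that of Irf3 was higher on HFD (57.5 TPM) than on CHOW (50.4 TPM) at 20 weeks.

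**Figure D5:**
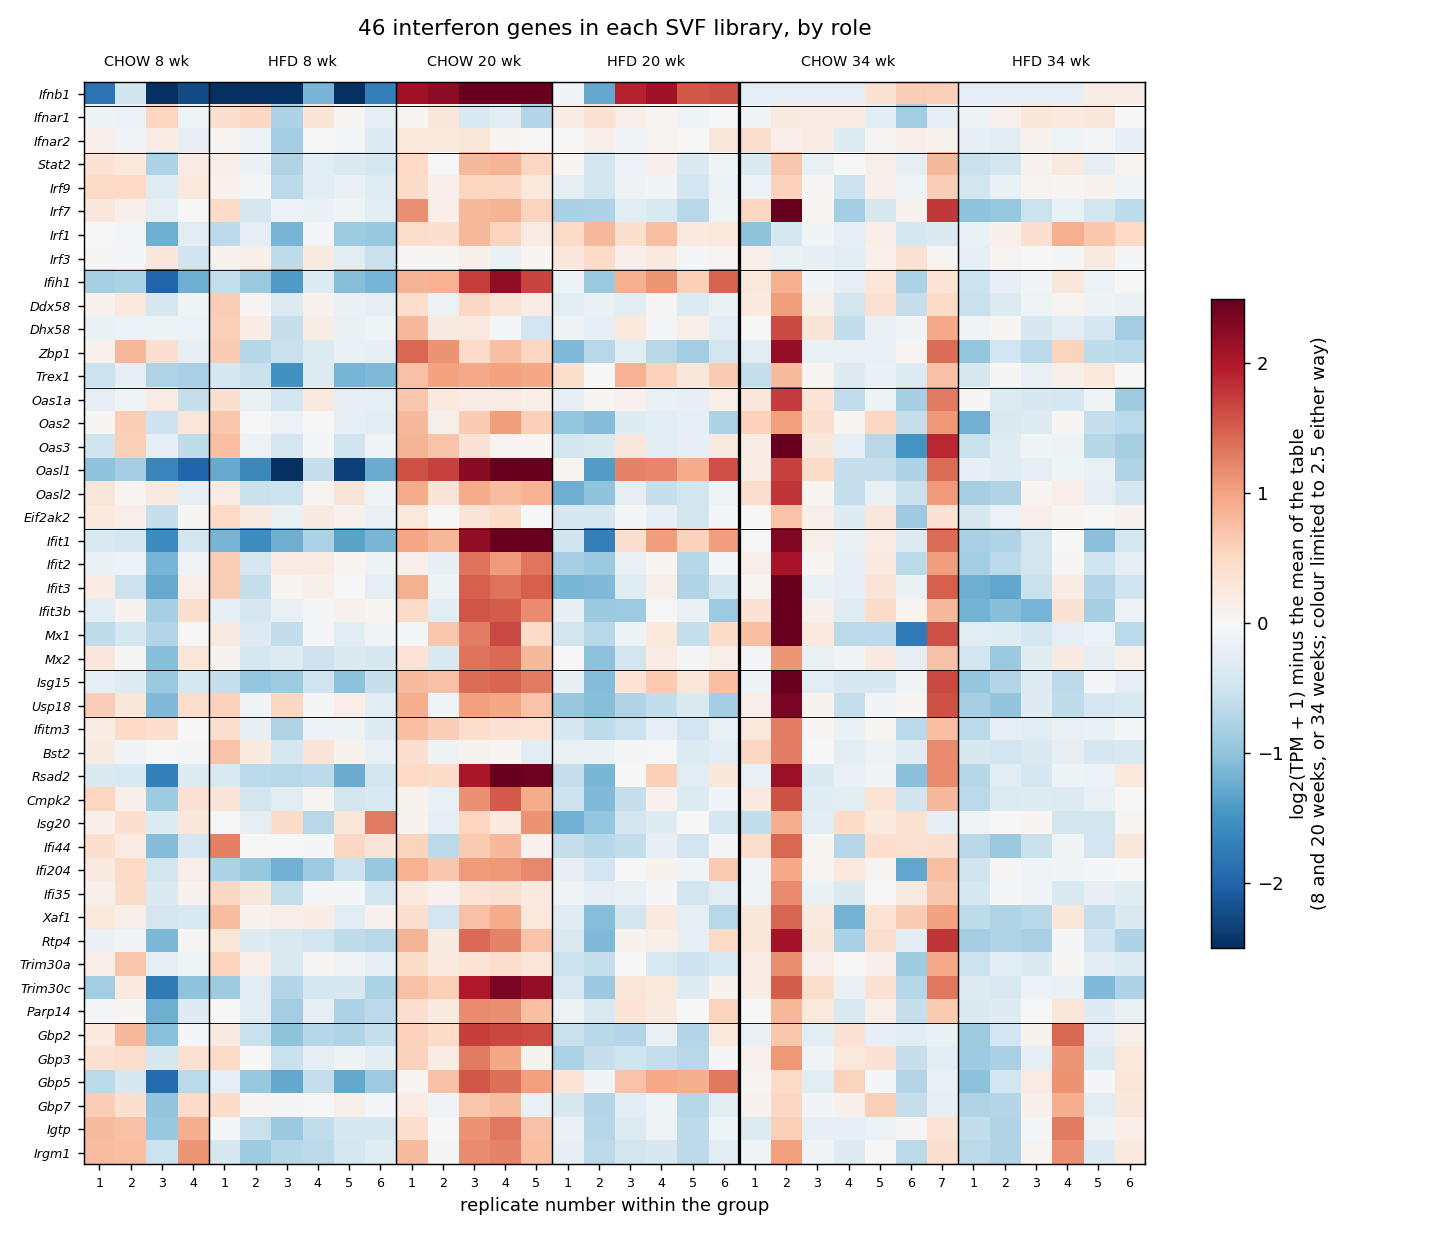
The 46 genes (rows, by role from the ligand at the top to the GTPases at the bottom) in each library (columns, by group and replicate). Colour is log2(TPM + 1) minus the gene's mean over its table, from blue (low) to red (high), limited to 2.5 either way. The thick line separates the tables. CHOW at 20 weeks is red over most rows, above all Ifnb1, Oasl1 and Ifit1, and in CHOW at 34 weeks replicates 2 and 7 are red.

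The genes whose levels were most like those of Ifnb1 over the 21 libraries of 8 and 20 weeks were Oasl1 (Pearson r 0.975), Isg15 (0.955), Ifit1 (0.949), Cxcl10 (0.949) and Serpina3f (0.947). The last 2 are not among the 46. The libraries share their groups, so these values mostly follow the contrast of 20 with 8 weeks, and no p is given. Cxcl10, a chemokine that draws T cells, was at 352 to 688 TPM (median 560) on CHOW and at 76.5 to 422 TPM (median 277) on HFD at 20 weeks. Serpina3f, a protease inhibitor, was at 7.02 to 14.4 TPM on CHOW and at 3.82 to 5.94 TPM on HFD. Of the 46, Ifih1 ranked 6, Trex1 12 and Gbp5 20 in the same order, whereas the transducer Irf7 (r 0.437) ranked 1753.

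Other genes of the pathway were taken from a list of names, also drawn up with earlier results of these data known. Of 37 further interferon-stimulated genes tested, 17 were lower on HFD at 20 weeks and none higher, led by Gbp6 (-1.95, SE 0.35, adjusted p = 0.00104), Apol9a (-1.78, SE 0.32, adjusted p = 0.00128) and Apol9b (-1.61, SE 0.27, adjusted p = 0.000676). From 8 to 20 weeks on CHOW 1 of the 37 rose, Cxcl10 (2.59, SE 0.43, adjusted p = 0.00714), and on HFD 3 rose and 3 fell. Over all genes tested 4.99% were lower on HFD at 20 weeks, 0.458% rose on CHOW, and 6.12% rose and 2.65% fell on HFD. Of 9 sensing genes Tlr9, the endosomal sensor of DNA, was lower on HFD at 20 weeks (-1.62, SE 0.21, adjusted p = 6.2e-05) and Ikbke, a kinase that activates IRF3, was higher at 20 than at 8 weeks on HFD (1.19, SE 0.33, adjusted p = 0.0281). Of 4 signalling genes Socs3 alone passed, for time on HFD (1.08, SE 0.18, adjusted p = 0.000707). None of 4 type II and III ligand and receptor genes tested was called.

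A further list of 19 held genes that the same sensors induce through NF-κB and genes raised by tissue dissociation. From 8 to 20 weeks on CHOW 6 of 19 rose (0.458% of all genes tested) and 13 were not called, with a median of 0.066. Those that rose were cytokines, chemokines and an inhibitor of NF-κB (Il6, Il12b, Cxcl1, Ccl3, Ccl4 and Nfkbia), the largest changes being Ccl4 (3.07, SE 0.56, adjusted p = 0.0141), Il6 (2.57, SE 0.56, adjusted p = 0.0405) and Cxcl1 (2.44, SE 0.38, adjusted p = 0.00346). On HFD 8 of 19 rose (6.12% of all genes), Tnf and Cxcl2 in addition, and 11 were not called. Between the diets at 20 weeks Dusp1 was higher on HFD (0.63, SE 0.18, adjusted p = 0.0233), where 9.32% of all genes were higher, and the other 18 were not called. Il6, for instance, was at 957 ± 304 TPM on CHOW (SD, n = 5) and 952 ± 639 TPM on HFD (n = 6). The immediate early genes of the list (Fos, Fosb, Jun, Junb, Egr1, Atf3 and Ier2), which are known to be raised while tissue is digested, were not called for time on either diet. Nor were Dusp1, Hspa1a and Hspa1b. A gene not called may still have changed: of 16808 genes tested, 103 were called on CHOW and 1475 on HFD. The part of digestion in these values was not tested.

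Markers of some cell types differed between the diets at 20 weeks, where 4.99% of all genes tested were lower on HFD and 9.32% higher. Of 3 monocyte markers 2 were lower on HFD (Ly6c2 and Ccr2), and the summed level of the 3 was 85.5 to 127 TPM on HFD and 133 to 403 TPM on CHOW. Of 6 plasmacytoid dendritic cell markers, cells known for high interferon output, Siglech was lower and Runx2 higher, with sums of 14.2 to 32.2 TPM on HFD and 27.8 to 44.6 TPM on CHOW. Of 5 conventional dendritic cell markers Cd209a was lower (sums 26.2 to 39.8 against 92.6 to 124 TPM). Of 8 macrophage markers 4 were higher (Adgre1, Cd68, C1qb and Lyz2), with sums of 8367 to 15000 TPM on HFD and 4645 to 11304 TPM on CHOW. Of 5 neutrophil markers Retnlg was lower (-3.62, SE 0.60, adjusted p = 0.00055), with sums of 34.1 to 507 TPM on HFD and 190 to 1416 TPM on CHOW. Of 5 fibroblast or progenitor markers Dcn and Pi16 were lower (sums 3517 to 6581 against 5171 to 7429 TPM), and of 5 T cell markers Cd4. All 4 mesothelial and all 4 erythroid markers and 4 of 5 adipocyte markers were lower, and Lep and all 3 mast cell markers were higher. No marker was at 0 in all libraries of a group, and the part of these cells in the interferon genes was not tested.

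Between 8 and 20 weeks on CHOW, only Lep of the adipocyte list was called (lower) among the cell type markers reported here. Few genes passed in that comparison at all: of 16808 tested, 77 rose and 26 fell. The plasmacytoid dendritic cell sum was 21.8 to 44.7 TPM at 8 and 27.8 to 44.6 TPM at 20 weeks, the monocyte sum 112 to 395 and 133 to 403 TPM, and the macrophage sum 7217 to 10386 and 4645 to 11304 TPM, all overlapping. The conventional dendritic cell sum was 68.3 to 109 and 92.6 to 124 TPM and the mast cell sum 207 to 367 and 336 to 481 TPM, which overlapped too. The part of these cells in the rise of Ifnb1 was not tested. On HFD 4 of 8 macrophage markers (Adgre1, Cd68, C1qa and C1qb) rose over the same time, Ccr2 and Cd209a fell, and all 5 adipocyte and all 4 erythroid markers fell. There 6.12% of all genes tested rose and 2.65% fell.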

How the data were processed

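RNA-seq of the SVF of visceral fat was analysed in 34 libraries. Reads were checked with FastQC and MultiQC, trimmed with Trimmomatic and quantified by the authors with Salmon against gencode M10 (mm10) protein coding and long non-coding transcripts, summed to genes. Their versions were not given in the sources used here. As deposited, the unit is TPM (transcripts per kilobase scaled to the library total), in 1 table for 8 and 20 weeks (21 libraries) and 1 for 34 weeks (13 libraries). These were fitted apart and never tested against each other. TPM keeps no read depth, so depth is unknown and no counting interval is given. The libraries held 13200 to 17213 genes at 1 TPM or more. The authors' own count-based test (DESeq2) cannot be run on TPM. Adipocyte libraries were not analysed here, and 2 genes of the lists are not reported here.

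IDs were matched to symbols with gencode M21 (GRCm38), version dropped (31791 matched). Groups and replicate numbers came from the sample titles. Nothing in the labels says more than that libraries of a group are separate samples. The p-values weigh a difference between groups against the spread between libraries within groups, shared over the groups of a fit. The most alike pair had r = 0.987, and none was merged.

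A gene was tested where at least 4 libraries (8 and 20 weeks) or 6 (34 weeks) reached 1 TPM, on log2(TPM + 1) with limma 3.58.1 in R 4.3.3 (1 mean per group, eBayes with trend, two-sided, Benjamini-Hochberg over all genes of a comparison, threshold 0.05). The fold changes understate the change of low genes. The fit was tested on simulated data. Errors are SDs of TPM and SEs of fold changes.

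The genes and lists were chosen with earlier results of these data known. Named in full were the ligand, receptors and transducers, each further gene called or, with more than 12 calls, the 6 highest and 6 lowest, the 3 most abundant (Ifitm3, Irf1 and Ifi204), the 5 most like Ifnb1, and up to 3 called per pathway list. Alternatives were a pseudocount of 0.1 TPM, no filter or 5 TPM, median-ratio and quantile scaling, sample quality weights, only the compared groups, a replicate block, and leaving out libraries.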

Additional observations from a re-analysis of the deposited data

Results flagged for a closer look

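In a group of 4 to 10 libraries, a library was looked at again when its gap to the nearest other took up more of the group's range of log2(TPM + 1) than Dixon's 95% critical value. Of 273 gene and group pairs 26 were so marked, and chance alone marks about 1 in 20. Libraries recur among them because the genes move together within a library, and the causes were not tested.

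CHOW 8 week replicate 3 was marked for 8 genes. It was high for Ifnar1 (78.8 TPM) and low for Stat2 (24.3 TPM), Ifit1 (6.54 TPM), Ifit2 (4.09 TPM), Rsad2 (8.64 TPM), Gbp3 (30.3 TPM), Gbp7 (8.33 TPM) and Igtp (27.2 TPM). HFD 8 week replicate 1 was high for Irf7 (61.2 TPM), Mx2 (10.5 TPM), Oas2 (21.2 TPM), Oas3 (4.60 TPM) and Gbp2 (134 TPM), and replicate 5 of that group was low for Rsad2 (12.3 TPM).

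At 20 weeks CHOW replicate 1 was low for Trex1 (222 TPM) and high for Oas1a (39.9 TPM), and CHOW replicate 2 was low for Usp18 (7.88 TPM) and Oasl2 (54.0 TPM). HFD replicate 3 was high for Trim30a (24.8 TPM) and HFD replicate 6 for Gbp3 (38.8 TPM). At 34 weeks CHOW replicate 2 was high for Ifit3b (29.6 TPM). HFD replicate 1 was low for Ifi204 (77.8 TPM) and Ifitm3 (619 TPM), replicate 4 high for Xaf1 (46.4 TPM) and Zbp1 (51.4 TPM), and replicate 6 low for Oasl1 (6.45 TPM).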

How the results depend on the processing

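The 28 calls lower on HFD at 20 weeks ranged from 26 to 38 over the other settings tried, none of which moved the count by over 1.5 times, and from 20 (without CHOW replicate 4) to 34 (without CHOW replicate 2) when 1 library was left out. The 10 calls for 8 to 20 weeks on CHOW became 17 (median-ratio scaling), 21 (quality weights for the libraries) and 6 in a fit of only the compared groups, and 7 (without CHOW 20 week replicate 4) to 16 (without CHOW 20 week replicate 2) with 1 library left out. All were higher. On HFD the 9 higher and 1 lower became 19 with quantile normalization (8 higher and 11 lower) and 6 without HFD 8 week replicate 3 and HFD 20 week replicate 5 together, and 7 (without HFD 8 week replicate 5) to 11 with 1 left out. The interaction went from 0 to 2 with median-ratio scaling, 5 with quantile normalization and 10 with sample quality weights, all lower, and from 0 to 7 with 1 left out. Diet at 8 weeks went from 0 to 4 with sample quality weights and to 1 with the replicate block, and from 0 to 3 with 1 left out, and at 34 weeks from 0 to 4 with sample quality weights and from 0 to 1 (without CHOW replicate 4) with 1 left out. No call changed sign under these alternatives. Counts over all genes are not given here for the alternatives or for the fits with a library left out. Whether these moves are particular to the genes followed is therefore not known, and the calls gained do not establish further differences. The cause of these moves was not tested.

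Replicate numbers are shared between groups, but same-numbered libraries deviated together (r over 0.1) in 2 of 4, 1 of 5 and 3 of 6 pairs for diet at 8, 20 and 34 weeks, and in 0 of 4 and 4 of 6 for time on CHOW and HFD, so the numbers were not taken to pair mice. With the replicate block the calls were 30 for diet at 20 weeks, 10 for time on CHOW (Parp14 lost), 11 for time on HFD, and 0 for diet at 34 weeks and for the interaction.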
